A study of Mus musculus with 9 samples.

Results

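The subunits of the oxidative phosphorylation machinery were examined in mammary glands of WT and hNAG-1 mice on lactation day 2. The members were the probes of a 1-color Agilent whole mouse genome array whose gene name begins with the root of a nuclear subunit family, namely Nduf followed by a, b, c, s or v, Sdha to Sdhd, Uqcr, Cox4 to Cox8 followed by a, b or c, or Atp5. Cox7a1 and Cox8b were left out. This gave 107 of 41174 probes, for 77 genes. Complex I held 52 probes of 37 genes, complex II 6 probes of 4 genes, complex III 10 probes of 7 genes, complex IV 15 probes of 13 genes and complex V 24 probes of 16 genes. The rule selects by gene name and applies no measured value.

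The RNA was that of the number 4 mammary gland, hybridized with 1 array per dam for 4 dams of the WT group and 5 of the hNAG-1 group. The strain background is labeled C57BL/7 in both groups. The hNAG-1 dams carry a transgene for human NAG-1, a secreted member of the TGF-beta superfamily also named GDF15, and it was designed to be expressed in all tissues. The methods name a single founder line as the default and say that animals of another line were added in some experiments, and the labels do not give the line of each arrayed dam. The WT dams carry no transgene. The comparison asked whether the RNA of the respiratory chain differs between the lactating glands of the genotypes.

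Oxidative phosphorylation takes place in the inner mitochondrial membrane. Complex I oxidizes NADH and complex II oxidizes succinate as a step of the TCA cycle, and both pass electrons through ubiquinone to complex III, cytochrome c and complex IV, where oxygen is reduced. Complexes I, III and IV pump protons, and complex V uses the gradient to make ATP. A secretory mammary cell draws on this ATP to make milk protein, lactose and fat, and its mitochondria increase in number and activity around parturition. Most subunits are encoded in the nucleus and are measured here, and the subunits encoded in mitochondrial DNA are outside the name rule.

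Proximal promoters of 3 members are shown because their probes carry the results below: Sdhb is the member with the smallest p, Cox7c is the constitutive subunit with the lowest difference, and Cox6a1 is the constitutive partner of the isoform that varied most between mice. Each sequence holds the 250 bases before the gene start on its own strand, from RefSeq on build GRCm38.p6, and capitals mark letters matching a motif of the factors known to bind respiratory chain promoters. Sdhb lies at chr4:140961021-140961270 on the plus strand, Cox6a1 at chr5:115348959-115349208 on the minus strand and Cox7c at chr13:86046796-86047045 on the minus strand.
Sdhb: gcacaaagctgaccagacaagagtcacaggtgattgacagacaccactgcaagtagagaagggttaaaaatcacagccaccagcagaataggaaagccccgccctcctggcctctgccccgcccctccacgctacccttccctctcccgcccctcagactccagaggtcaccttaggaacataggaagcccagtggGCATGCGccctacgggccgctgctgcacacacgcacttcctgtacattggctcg
Cox6a1: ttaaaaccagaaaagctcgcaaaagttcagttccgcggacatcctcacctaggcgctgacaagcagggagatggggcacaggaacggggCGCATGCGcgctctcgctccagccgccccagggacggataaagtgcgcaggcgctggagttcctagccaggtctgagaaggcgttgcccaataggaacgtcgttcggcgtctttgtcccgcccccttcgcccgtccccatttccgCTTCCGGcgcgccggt
Cox7c: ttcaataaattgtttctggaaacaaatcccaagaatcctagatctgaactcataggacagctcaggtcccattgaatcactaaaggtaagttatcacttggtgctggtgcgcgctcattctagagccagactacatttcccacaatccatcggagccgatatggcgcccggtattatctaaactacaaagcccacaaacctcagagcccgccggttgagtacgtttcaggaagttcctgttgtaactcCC

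The motifs below were searched on both strands of the 300-base windows that run from 250 bases before to 50 bases after a start. They were GCATGCG, the center of the palindromic site, for NRF1, CCGGAAG for GABP, AAGATGG for YY1 and AAGGTCA for ESRRA. Of the 77 member genes, 65 had a window, in 70 windows. The NRF1 letters stood in 11 of these 70 windows (15.7%) and in 3.58% of all 32851 windows. The GABP letters stood in 17 member windows (24.3%) and in 8.86% of all windows, the YY1 letters in 11 (15.7%) and 6.34%, and the ESRRA letters in 8 (11.4%) and 4.72%. In Cox6a1 the NRF1 letters stand on both strands, 1 base apart and overlapping, from 161 bases before the start, and the GABP letters begin 16 bases before it. In Sdhb the NRF1 letters begin 54 bases before the start and the GABP letters begin at base 7 after the start, outside the printed stretch, and in Cox7c the YY1 letters begin 2 bases before the start and run past it. These are matches of letters, and no binding was measured.

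The glands gave the RNA of lactating tissue. The 8 luminal and milk markers, among them Csn2, Wap, Lalba and Elf5, were well above background on all 9 arrays, and none passed the test between genotypes. Of 7 white adipocyte markers, among them Adipoq, Retn and Plin1, 0 passed (median difference 0.45), and WT 1 had the least of them (median deviation -1.04). Intensities are the scanner's background-subtracted signals scaled to the same 75th percentile on every array, and a difference is always the log2 scaled intensity of hNAG-1 minus that of WT. Calls are two-sided, from limma fitted over all 41174 probes, and measure the spread between mice. The p printed beside a single probe is that of an exact permutation test that reassigned the genotypes of the 9 arrays in every possible way, two-sided and unadjusted, and its smallest possible value is 0.00794. Of the 3 slides, the first carried WT 1 alone and slide 2 carried hNAG-1 1 to hNAG-1 4. Only slide 3, with WT 2 to WT 4 and hNAG-1 5, carried both genotypes. Of the 107 member probes, 101 were well above background on all 9 arrays. The exceptions were 3 probes that were well above background on 1 array (1 probe each of Sdhc and Cox5a, and Cox8c) and 3 on none (1 probe each of Ndufab1, Ndufs1 and Ndufs4). Apart from Cox8c, each of these genes had another probe that was well above background on every array. No member probe was saturated.

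Few respiratory chain subunits passed the test between WT and hNAG-1 glands. At an unadjusted p under 0.05, 1 of 107 member probes was higher in hNAG-1, where 1.2% of all probes were called higher, and 0 were lower, where 4.42% of all probes were called lower. The 1 probe was that of Sdhb. With arrays scaled to a common median in place of the 75th percentile, 10 of 107 were higher, where 6.19% of all probes were, 0 were lower, where 2.57% of all probes were, and 104 of 107 differences were above 0, with a median of 0.29 beside 0.20 over all probes. After Benjamini-Hochberg adjustment over all probes in limma, 0 member probes were called, and 0.00243% of all probes were, which is a single probe. The smallest adjusted p of a member was 0.654. In 2 member probes, that of Sdhb among them, all 5 hNAG-1 arrays lay above all 4 WT arrays, where 0.695% of all probes did so. In 0 members all hNAG-1 arrays lay below all WT arrays, where 0.69% of all probes did so.

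The width of the intervals depended on the processing. Among the 101 probes well above background on all arrays, the half-width of the 95% confidence interval had a median of 0.40 (log2). The whole interval lay within a 1.5-fold change in either direction for 85 of the 101 probes (84.2%), against 46.5% of the 23086 probes of the array that were well above background on all arrays. For the other 16 member probes the interval reached past 1.5-fold, and for 99 of 101 it stayed within 2-fold. The 2 exceptions were Cox6a2 and the dim Uqcrq probe. With Cox6a2 aside, the differences of the 101 probes ran from -0.43 (Cox7c) to 0.56 (a dim Uqcrq probe), and 85 of the 101 were smaller than 0.2 in size. These intervals leave slide out of the fit. With slide as a fixed block, in which 1 hNAG-1 array is compared with 3 WT arrays, the median half-width was 0.72 and 0 of 101 intervals lay within 1.5-fold, with median scaling 1 of 101 did, and without scaling 7 did. Leaving out a mouse gave between 42 (without WT 1) and 85 (without WT 2) of 101, with 45 without WT 4 and 49 without WT 3.

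**Figure D1:**
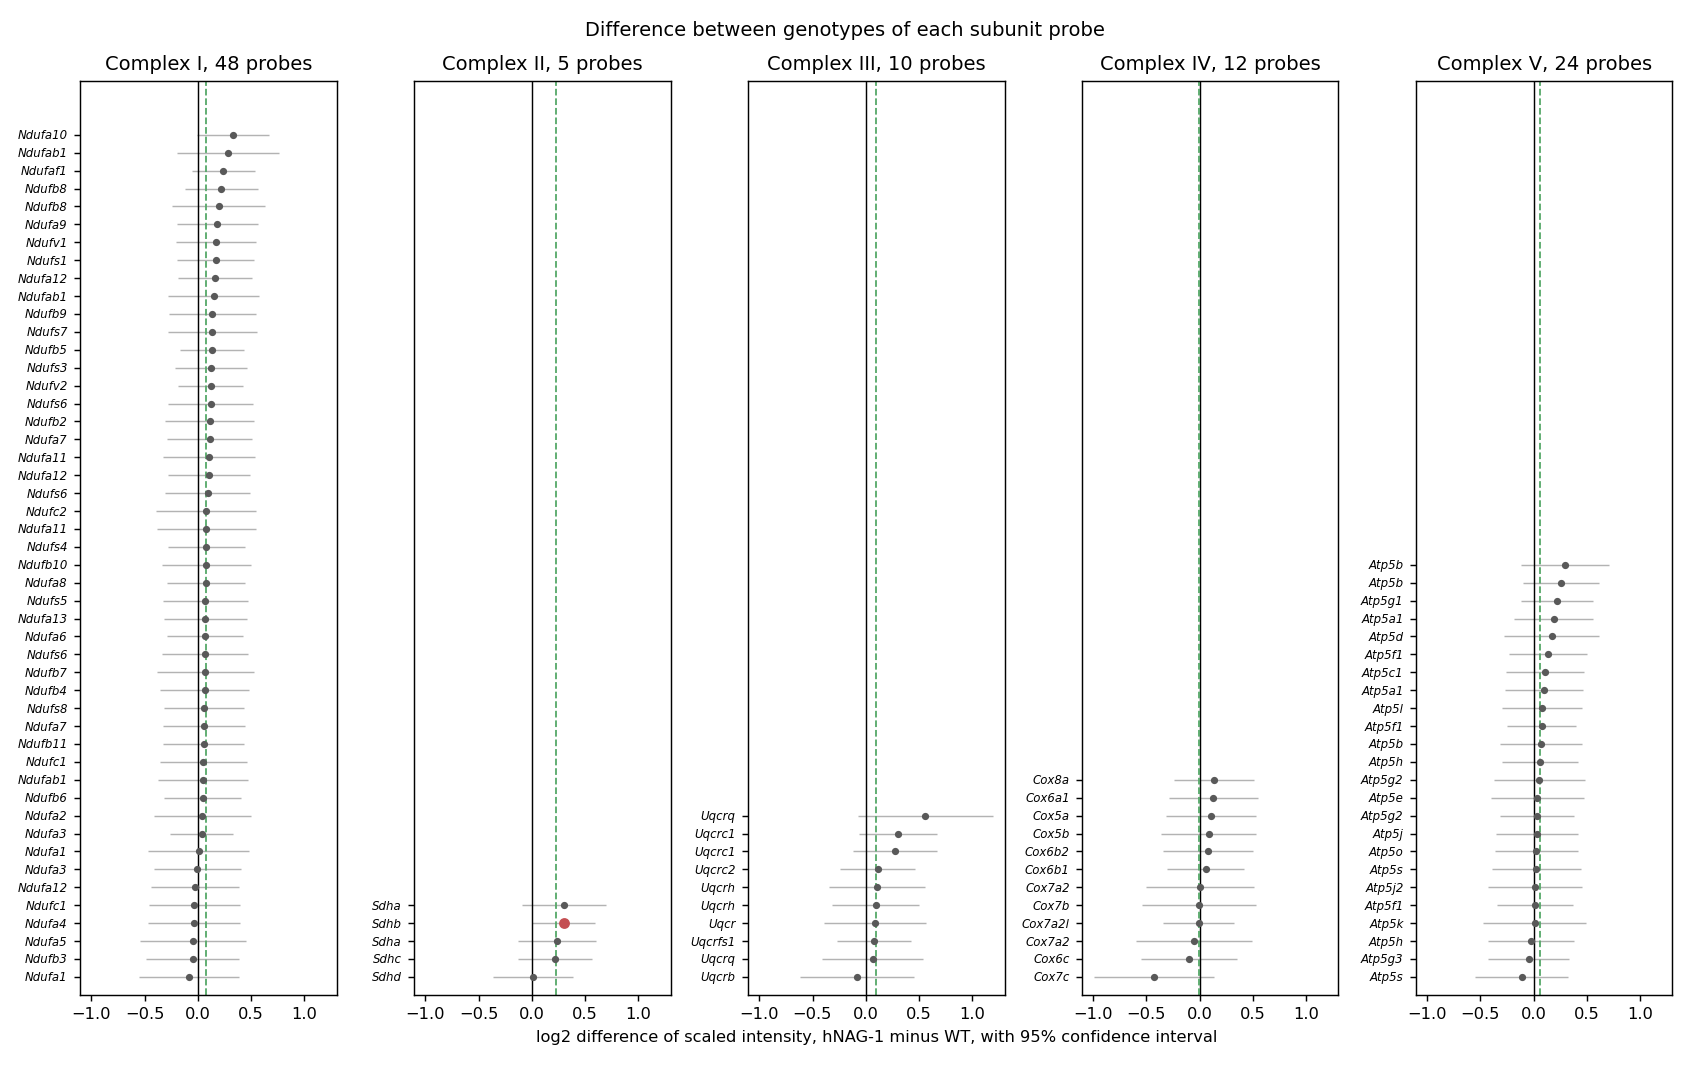
Each point is the log2 difference (hNAG-1 minus WT, x axis) of 1 probe well above background on all 9 arrays, with its 95% confidence interval from limma, sorted within its complex (rows are genes, Cox6a2 at -1.95 is left out for scale, and 1 probe of complex I is not shown). The dashed line is the median over all probes of the complex, and the red point is Sdhb, whose genotypes did not overlap. Most points lie close to 0, with medians of 0.08 for complex I, 0.23 for complex II, 0.10 for complex III, -0.01 for complex IV and 0.06 for complex V.

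The median difference of the 107 probes was 0.08, beside -0.01 over all probes of the array. Of the 107 differences, 88 were above 0 (82.2%), beside 48.3% over all probes. This one-sided lean rested on a single WT array. Without WT 2 the median of the members was -0.05 beside -0.04 over all probes, and 33 of 107 differences were above 0 (30.8%), beside 45.0% of all probes. Scaling arrays to their median, or not at all, shifts every probe alike, and the members stayed 0.09 above the median of all probes in both. With quantile normalization they lay 0.02 below it (0.01 beside 0.03). The sign relative to all probes thus changed without WT 2 and with quantile normalization, and no direction is given for the family.

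WT 2 was low across the respiratory chain. Its median deviation from each probe's mean over the 9 arrays was -0.47 over the 107 members, beside -0.07 over all probes. The other 8 arrays lay between -0.06 and 0.19. WT 2 was the lowest of the 9 arrays for 93 of 107 member probes (86.9%), where it was the lowest for 29.7% of all probes. This held for 51 of 52 probes of complex I, 4 of 6 of complex II, 9 of 10 of complex III, 10 of 15 of complex IV and 19 of 24 of complex V. It was the highest array for 0 member probes.

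Several measures of WT 2 moved with this. Its 75th percentile of the unscaled intensity was 1133, the largest of the 9 arrays, where the others ran from 509 to 915, so that scaling lowered it most. Quantile normalization brought its member deviation to -0.15 and left it the lowest array for 47 of 107 member probes (43.9%), beside -0.08 and 22.0% over all probes. The 8 luminal and milk markers deviated by -0.52 in WT 2. The 5 lymphocyte markers Cd79a, Ms4a1, Cd3e, Cd3g and Ccr7 deviated by a median of 3.32, and their summed intensity was 7640.2 in WT 2 and between 370 and 1363 on the other 8 arrays. No defining lymphocyte marker was at 0 there. In bulk tissue, fewer cells of a type and less RNA per cell cannot be told apart, and the part of these measures in the subunit values was not tested.

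**Figure D2:**
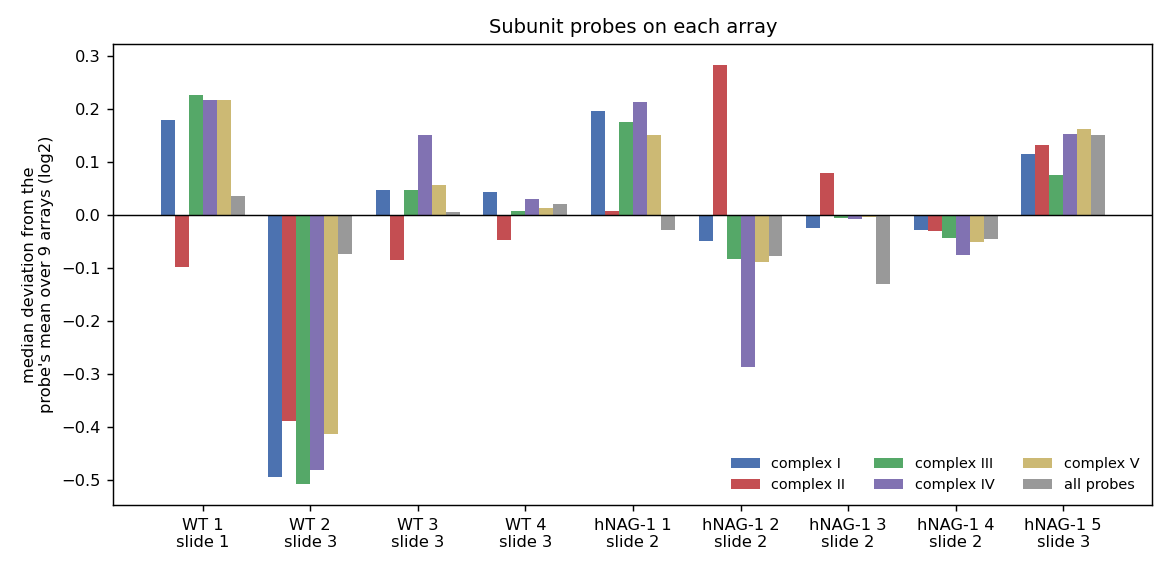
Bars give, for each array (x axis, with its slide), the median over the probes of a complex of the deviation from the probe's own mean over 9 arrays (y axis, log2), beside all probes in gray. WT 2 lies between -0.39 and -0.51 for the 5 complexes while all probes lie at -0.07, and hNAG-1 2 has complex II at 0.28 and complex IV at -0.29.

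Complex II, succinate dehydrogenase, is the enzyme shared by the respiratory chain and the TCA cycle, and its median was 0.23 with 6 of 6 probes above 0, and 0.17 with 4 of 6 above 0 without WT 2. Sdhb, the iron-sulfur subunit that passes electrons from succinate toward ubiquinone, gave the 1 called probe, which maps to chr4:140345040-140349607 on the build of the array's annotation, mm7. Its scaled intensity was 21146, 17078, 20502 and 20383 in WT 1 to WT 4 and 22065, 25917, 24434, 23977 and 25004 in hNAG-1 1 to hNAG-1 5. The hNAG-1 arrays were all higher than the WT arrays, with hNAG-1 1 and WT 1 closest to each other. The mean of the WT arrays was 19778 ± 1830.4 (SD, n = 4), and that of the hNAG-1 arrays was 24279 ± 1434 (SD, n = 5). The log2 difference was 0.30 (SE 0.13), a 1.23-fold change with a 95% interval from 1.00 to 1.51, and the adjusted p in limma was 0.654.

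The exact permutation test of Sdhb gave p = 0.0159. On slide 3 alone hNAG-1 5 was higher than each of the 3 WT arrays. The difference there, and with slide as a fixed block, was 0.38 (log2), where the median of all probes was 0.19. Both values rest on a single hNAG-1 array and cannot decide whether the call holds within a slide. The call depended on single mice: it remained without hNAG-1 1 and was lost in each of the other 8 omissions of a mouse, where the difference stayed between 0.23 (without WT 2) and 0.33. It was also lost without scaling (0.15, where the median of all probes was -0.16), with normexp background correction (0.26), with quantile normalization (0.20) and with the replicate block (0.29).

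The flavoprotein Sdha binds succinate and starts the reaction. Its brighter probe read 4086, 4344, 4570 and 4054 in the WT arrays and 4423, 7405, 4833, 4678 and 5415 in the hNAG-1 arrays. hNAG-1 2 stood far above the other arrays and hNAG-1 1 lay within the WT range. The difference was 0.30 (SE 0.17, exact permutation p = 0.0556), and the other Sdha probe gave 0.24 (SE 0.16). Without hNAG-1 2 the brighter probe gave 0.18 and the other 0.15. The membrane anchors Sdhc and Sdhd, which hold the ubiquinone site, gave 0.22 (SE 0.15) and 0.01 (SE 0.17) on their bright probes. hNAG-1 2 was the highest array for 4 of 6 complex II probes.

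Complex I is the largest complex, with core subunits that carry the flavin and the iron-sulfur clusters and a shell of accessory subunits. None of its 52 probes passed the test, the median was 0.08, and 45 of 52 differences were above 0. Without WT 2 the median was -0.05 and 16 of 52 differences were above 0.

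Ndufa10, an accessory subunit of the matrix arm, had the largest difference among complex I probes well above background on all arrays, 0.33 (SE 0.15, exact permutation p = 0.0397). It read 7027, 6237, 7302 and 7959.5 in WT 1 to WT 4 and 7659, 10450.4, 9237, 8033 and 9624 in the hNAG-1 arrays. hNAG-1 1 lay within the WT range and the other 4 hNAG-1 arrays lay above it. The Ndufa10 probe missed the unadjusted threshold of limma. Its difference was 0.18 without scaling, 0.25 with quantile normalization and 0.31 with the replicate block, and it missed the threshold in each of these. It was 0.43 with slide as a fixed block, which rests on 1 hNAG-1 array and where the median of all probes was 0.19. It passed with dim probes left out, a floor of 20, median scaling, normexp correction, eBayes with trend and robust estimation and the methods' test, and without hNAG-1 1 or hNAG-1 4.

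The 7 core genes of complex I were measured by 8 probes, all with differences above 0 and with a median of 0.15, which was 0.04 without WT 2. Ndufv1, which binds NADH, gave 0.17 (SE 0.17), the brighter probe of Ndufs1 gave 0.17 (SE 0.16), Ndufs7 gave 0.14 (SE 0.19) and Ndufs8 gave 0.06 (SE 0.17). Each of these SEs is close to the difference itself or larger. WT 2 was the lowest array for all 8 core probes, 1 of which (Ndufs1) was not well above background on any array. The 42 accessory probes had a median of 0.08 and ran from -0.09 for a probe of Ndufa1 to 0.41 for the Ndufs4 probe that was not above background on any array. Without WT 2 the accessory median was -0.06, with 9 of 42 differences above 0. After Ndufa10, the highest difference of a complex I probe well above background was that of a dim probe of Ndufab1, the mitochondrial acyl carrier protein, at 0.28 (SE 0.21) and 0.10 without WT 2. The brightest Ndufab1 probe gave 0.05 (SE 0.19). The lowest differences of complex I were those of the brighter probe of Ndufa1, -0.09 (SE 0.21), and of Ndufb3, -0.05 (SE 0.19), both subunits of the membrane arm. Ndufaf1, which the name rule takes in, is an assembly factor of complex I and no subunit. It gave 0.24 (SE 0.13, exact permutation p = 0.0238). Ndufa4, named as a complex I subunit and since assigned to complex IV, gave -0.03 (SE 0.19).

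Complex III passes electrons from ubiquinol to cytochrome c. None of its 10 probes passed the test and the median was 0.10. Uqcrc1, a core protein of the matrix side, was measured by 2 probes. The brighter read 21742, 14699, 18166 and 20579 in WT 1 to WT 4 and 23491, 23237, 24415, 19268 and 24731 in the hNAG-1 arrays. hNAG-1 4 lay within the WT range and the other 4 hNAG-1 arrays lay above it, while WT 2 was the lowest array. The difference was 0.30 (SE 0.16, exact permutation p = 0.0476) and 0.19 without WT 2, and the other probe gave 0.27 (SE 0.17). Uqcrc2, its partner core protein, gave 0.11 (SE 0.16), the Rieske iron-sulfur protein Uqcrfs1 gave 0.07 (SE 0.15) and the small subunit Uqcrb gave -0.08 (SE 0.24).

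The 2 probes of Uqcrq, a ubiquinone-binding small subunit, differed most among genes with several probes. The bright one gave 0.07 (SE 0.21) and the dim one, with scaled intensities from 41.8 to 130, gave 0.56 (SE 0.28). Among the 20 member genes with several probes well above background on all arrays, the median range between probes of a gene was 0.08 and the Uqcrq range of 0.49 was the largest. No gene had probes of opposite sign that differed by over 0.5.

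Complex IV, cytochrome c oxidase, was the complex with the lowest median (-0.01, 7 of 15 differences above 0). None of its 15 probes passed the test. Cox7c, a constitutive small subunit that spans the membrane, had the lowest difference among constitutive subunits. It read 12495, 9022, 15836 and 14427 in WT 1 to WT 4 and 9278, 7356, 8579, 8295 and 15242 in hNAG-1 1 to hNAG-1 5. The 4 hNAG-1 arrays of slide 2 lay between 7356 and 9278, near or below WT 2, while hNAG-1 5 on slide 3 was higher than 3 of the 4 WT arrays. The difference was -0.43 (SE 0.25, exact permutation p = 0.135), a fold of 0.743 with a 95% interval from 0.502 to 1.10. With slide as a fixed block, in which only slide 3 compares the genotypes, it was 0.26, where the median of all probes was 0.19. Without hNAG-1 5 it was -0.60, and the probe then passed the unadjusted threshold of limma, as it did without WT 2 (-0.59). Slide and genotype cannot be told apart for the 4 arrays of slide 2.

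**Figure D3:**
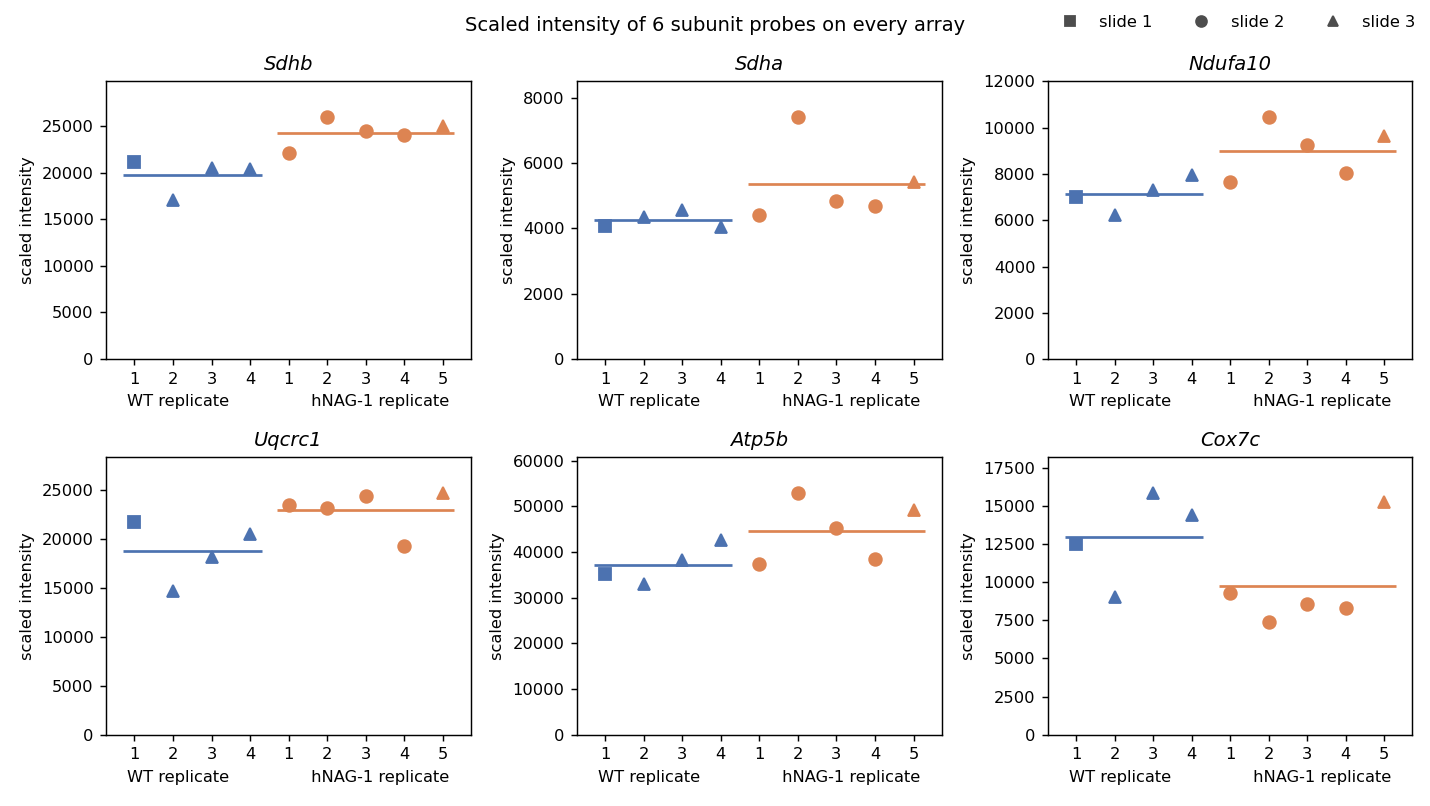
Points give the scaled intensity (y axis, from 0) of 6 probes on every array, with WT in blue, hNAG-1 in orange, the marker shape showing the slide and a line at each group mean. All hNAG-1 values exceed all WT values for Sdhb, hNAG-1 2 is the highest array for Sdha at 7405, and for Cox7c the 4 hNAG-1 arrays of slide 2 lie at 7356 to 9278 while hNAG-1 5 on slide 3 reads 15242.

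Several subunits of complex IV come as pairs of a constitutive and a tissue-restricted isoform. Cox6a1, the constitutive form whose promoter is printed above, gave 0.13 (SE 0.19), with 268367 in WT 2 and between 375052 and 503369 on the other 8 arrays. Cox6a2, the form of heart and skeletal muscle, had the widest spread of any member. It read 115, 1374, 798 and 5099.9 in WT 1 to WT 4 and 90.6, 49.6, 1286, 118 and 996 in hNAG-1 1 to hNAG-1 5. The highest value was 103-fold above the lowest, both genotypes held high and low arrays, and the difference of -1.95 (SE 1.28, exact permutation p = 0.238) had a 95% interval from -4.83 to 0.94. It passed the unadjusted threshold of limma without WT 1.

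The 6 striated muscle markers Acta1, Ckm, Mylpf, Tnnt3, Atp2a1 and Myh4 were high and low on much the same arrays. Their summed intensity ran from 4012 to 90710.4 in WT and from 2724 to 28428 in hNAG-1, each of the 6 was highest in WT 4, and 0 of 6 passed the test (median difference -1.54). WT 4 and hNAG-1 3 were the highest arrays of their genotype for Cox6a2 and for that sum, and hNAG-1 2 the lowest of all for both. The lowest marker value was 32.2 for Ckm in hNAG-1 2, and none was at 0. The part of muscle RNA in the Cox6a2 values was not tested.

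**Figure D4:**
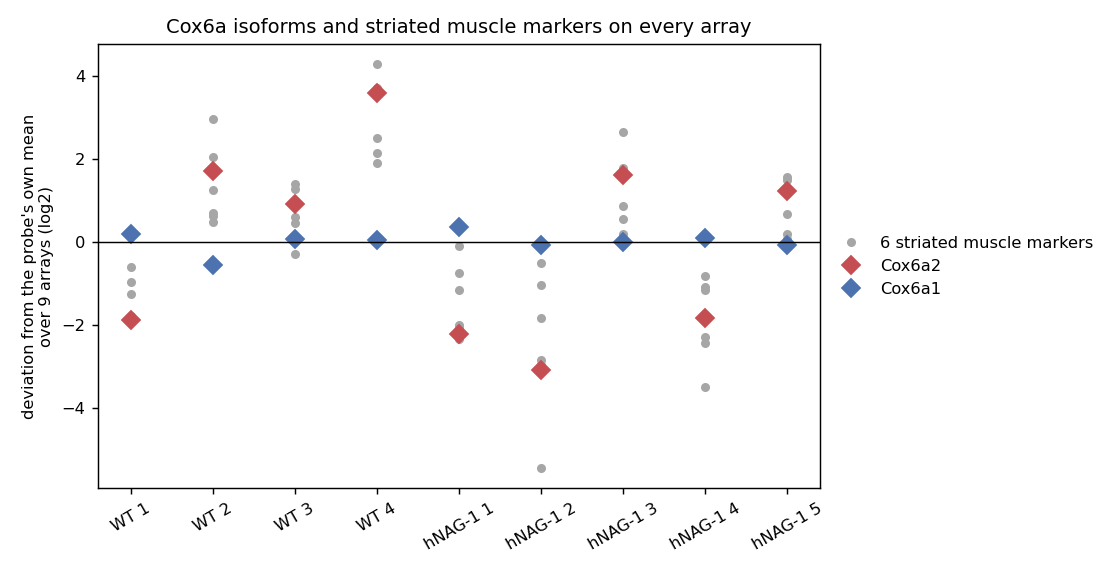
Each symbol is the deviation of a probe from its own mean over 9 arrays (y axis, log2) on 1 array (x axis), for Cox6a2 in red, Cox6a1 in blue and 6 striated muscle markers in gray. Like the muscle markers, Cox6a2 is highest in WT 4, where it read 5099.9, while Cox6a1 varies less and is lowest in WT 2.

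The other isoform pairs differed less. Cox6b1 gave 0.06 (SE 0.16) and its testis form Cox6b2 gave 0.08 (SE 0.19). Cox8a gave 0.13 (SE 0.17), and the testis form Cox8c was well above background on 1 array, in WT 1, so no fold is given. Cox7a2 gave -0.05 on its brighter probe (SE 0.24), and Cox7a2l, a factor that joins complexes III and IV into supercomplexes, gave -0.01 (SE 0.15). The nuclear subunits Cox5a and Cox5b, which attach to the mitochondrially encoded core, gave 0.11 (SE 0.19) and 0.08 (SE 0.20). The constitutive small subunit Cox6c gave -0.10 (SE 0.20). In hNAG-1 2 the 11 probes of constitutive subunits deviated by -0.29, whereas the catalytic subunits of complex II deviated by 0.43 on that array.

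Complex V, the ATP synthase, had a median of 0.06 and no probe past the test among 24. The 8 probes of the catalytic head and central stalk had a median of 0.14, with 8 of 8 above 0, and without WT 2 the median was -0.01 with 4 of 8 above 0. The 3 probes of Atp5b, the catalytic beta subunit, did not give the same size of difference. The 2 dimmer probes gave 0.29 (SE 0.18) and 0.26 (SE 0.16), and the brightest gave 0.07 (SE 0.17). The second of these read 35135, 33031, 38234 and 42661 in WT 1 to WT 4 and 37448, 52937, 45300.4, 38508 and 49214 in the hNAG-1 arrays. hNAG-1 2, hNAG-1 3 and hNAG-1 5 were higher than every WT array, and hNAG-1 1 and hNAG-1 4 lay within the WT range. The alpha subunit Atp5a1 gave 0.10 (SE 0.16) on its brighter probe and the gamma subunit Atp5c1 of the rotating stalk gave 0.10 (SE 0.16).

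The c-ring, through which protons flow, is made from 1 mature protein encoded by the genes Atp5g1, Atp5g2 and Atp5g3. Atp5g1 gave 0.22 (SE 0.15, exact permutation p = 0.0873) and 0.12 without WT 2, and it read 59208, 41214, 53919 and 49729.7 in WT and 64578, 56528, 63190.0, 52721 and 58473 in hNAG-1. WT 1 lay above 3 of the 5 hNAG-1 arrays, and the other 3 WT arrays lay below or near the lowest hNAG-1 array. Atp5g2 gave 0.05 (SE 0.19) on its brighter probe and Atp5g3 gave -0.05 (SE 0.17). The 7 probes of the peripheral stalk had a median of 0.03 and the 3 probes of small membrane subunits of 0.01, and without WT 2 these were -0.07 and -0.15. Atp5s, which the name rule takes in and RefSeq now names Dmac2l, gave the lowest difference of complex V, -0.11 (SE 0.19), on its dimmer probe.

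Across complexes, the median depended on the arrays used and on how they were made comparable. Complex II had the largest median of the 5 complexes under the reported scaling, but on slide 3, the only slide with both genotypes, its 0.24 was below the 0.25 of complexes I and III and the 0.26 of complex V. Relative to the median of all probes under the same processing, complex II lay 0.24 higher as reported and between 0.05 (slide 3 alone) and 0.30 higher over the 24 alternatives that recompute the medians. Complex I ran from -0.06 to 0.17, complex III from -0.02 to 0.21, complex IV from -0.13 to 0.14 and complex V from -0.05 to 0.12 on the same relative scale. Complexes I and V were below 0 in 3 of the 24, complex III in 2 and complex IV in 6, and all 4 were below 0 without WT 2. The 24 are not all separate: median scaling, no scaling and the series table gave the reported relative medians. Slide 3 alone gave the same as slide as a fixed block, and the replicate block the same as leaving out hNAG-1 5. With slide as a fixed block, which compares hNAG-1 5 with WT 2, WT 3 and WT 4, the median was 0.26 over the members and 0.19 over all probes. The order of the complexes was not tested.

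**Figure D5:**
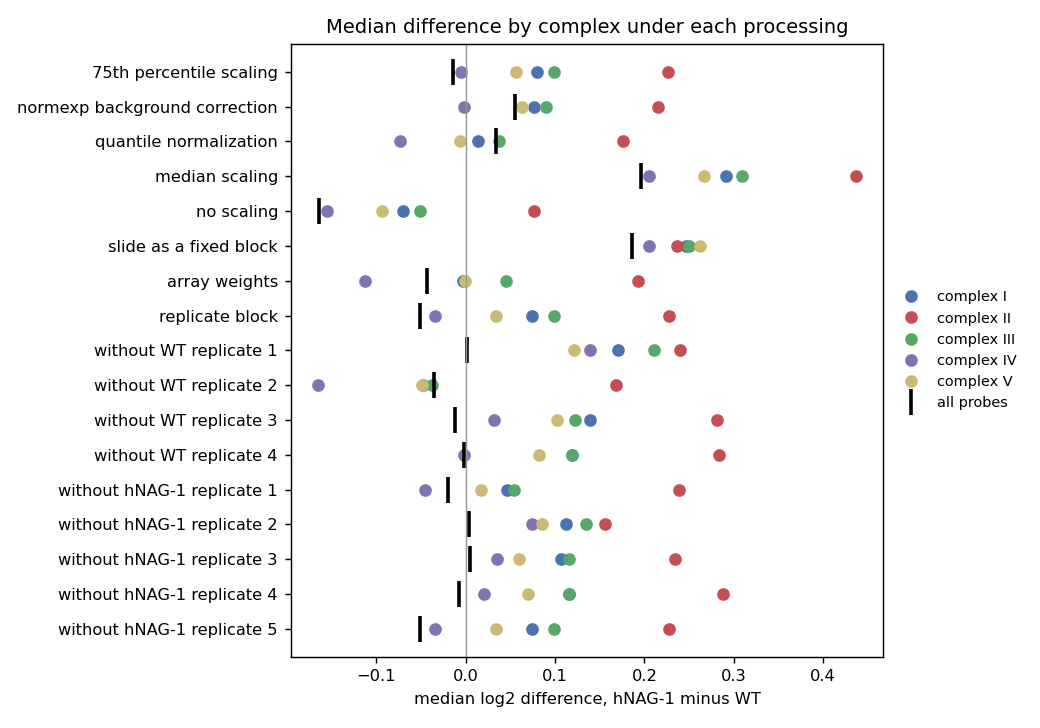
Points give the median log2 difference (x axis, hNAG-1 minus WT) of the probes of each complex under 17 ways of processing (rows), and the black bar gives the median of all probes. Complex II lies right of 0 in every row, between 0.08 and 0.44, and the other 4 complexes fall on both sides of 0. With median scaling and without scaling, all complexes and the black bar shift together.

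The name rule misses some subunits and carriers. Of 12 such genes, 0 passed the test in either direction and 6 differences were above 0. Cox4i1, the constitutive regulatory subunit of complex IV, gave 0.09 (SE 0.21), Cyc1, the cytochrome c1 of complex III, gave 0.23 (SE 0.22) and Cycs, cytochrome c, gave 0.17 (SE 0.19). Usmg5, a small subunit of complex V, gave 0.09 (SE 0.20), and Atpif1, the inhibitor of ATP hydrolysis, gave -0.10 (SE 0.22). The flavoproteins that feed electrons from fatty acid oxidation gave 0.08 for Etfa (SE 0.14), 0.11 for Etfb (SE 0.19) and -0.05 for Etfdh (SE 0.20). The lung isoform Cox4i2 and the testis cytochrome Cyct were well above background on 2 arrays and 1 array.

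The heart and muscle isoforms Cox7a1 and Cox8b, also abundant in brown fat, gave -0.19 (SE 0.30) and -0.07 (SE 0.79). Cox8b read 628, 1236, 4393 and 12953 in WT 1 to WT 4 and 2628, 3651, 2301, 1271 and 3149 in the hNAG-1 arrays. WT 3 and WT 4 were its highest arrays, and those arrays also had the most Ucp1, the uncoupling protein of brown fat, at 5080.0 and 9921, where the other 7 arrays read between 7.42 and 943. The summed intensity of the 6 brown adipocyte markers, which include Cox7a1 and Cox8b, ran from 4661 to 32302 in WT and from 4987 to 10096 in hNAG-1. Ucp1 was well above background on 7 of 9 arrays. The part of brown fat in these values was not tested.

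Other mitochondrial gene lists were examined as well, and their differences from the subunits were not tested. Of 13 TCA cycle genes, 1 passed the unadjusted threshold and was higher in hNAG-1, where 1.2% of all probes were called higher, with a median of 0.20 and 13 of 13 differences above 0. It was Suclg1, a subunit of the enzyme that makes succinate, which read 21848, 19039, 22279 and 22724 in WT and 25852, 27216, 26924, 24010.1 and 26278 in hNAG-1, with every hNAG-1 array above every WT array, as for 0.695% of all probes. Its difference was 0.28 (SE 0.12, exact permutation p = 0.00794, adjusted p = 0.654 in limma). Of 19 assembly factors (median 0.13, 16 above 0), 1 passed and was higher, Oxa1l (0.35, SE 0.12), which inserts subunits into the inner membrane, and its hNAG-1 arrays were also all above the WT arrays. Of 14 carriers, porins, import proteins and chaperones (median 0.15, 13 above 0), 1 passed and was higher, Tomm40 (0.64, SE 0.25), the channel of the outer membrane. None of the 3 was called after adjustment in limma.

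Of 15 biogenesis regulators 0 passed the test (median 0.05), among them the coactivator Ppargc1a (0.07, SE 0.47), Esrra (0.05, SE 0.18), Nrf1 (-0.04, SE 0.18), Gabpa (-0.10, SE 0.14), Yy1 (-0.14, SE 0.15) and the mitochondrial transcription factor Tfam (0.26, SE 0.32). Of 75 mitochondrial ribosomal protein genes 0 passed (median 0.10, 63 above 0). WT 2 was the lowest array for 12 of 13 TCA cycle genes and for 61 of 75 ribosomal protein genes, as it was for the subunits. Without WT 2 the medians were 0.08 for the TCA cycle, 0.03 for assembly factors, 0.06 for carriers and import, -0.01 for biogenesis regulators and -0.01 for ribosomal proteins.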

How the data were processed

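The authors deposited scanner files written by Agilent Feature Extraction 9.5.3.1, in which each feature has a background-subtracted intensity that was not made comparable between arrays. The deposited flags gave whether a feature was well above background, saturated or an outlier, and the deposited series table held the same intensities (largest difference 0). The methods name an ANOVA with a p of 0.05, with minimums of 1.5 for the fold and 65 for the intensity added. Mice were grouped by their titles.

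Control features were left out, features of a probe were averaged (245 probes were printed more than once), arrays were brought to 1 common 75th percentile and log2 was taken. limma 3.58.1 in R 4.3.3 (lmFit, eBayes) compared 5 hNAG-1 with 4 WT arrays over all 41174 probes without covariates, with Benjamini-Hochberg adjustment. The fit was tested on simulated data with independent noise for each probe and array. Those data held no slide effect and no shift shared by the probes of an array, so the test cannot show how the fit handles these. Exact permutation tests covered all splits of the arrays. Depth does not apply to arrays, and their number limits the precision.

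The members and gene lists were chosen with earlier results of these data known. Named probes were those with p under 0.05 or no overlap, the 2 largest rises and falls of each complex, core subunits, isoform groups, probes of a gene that disagree, and subunits outside the name rule. Lists took the brightest probe of a gene, and of 182 list entries 6 were matched by accession and 2 (Sco2 and Sdhaf1) were not matched. RefSeq held the accession of 93 of 107 member probes. Near-identical copies and pseudogenes of these genes can add signal to a probe. The alternatives covered background correction, scaling, a floor of 20, dim and flagged probes, slide, array weights, each mouse left out, a replicate block, means over a gene's probes, the series table, the study's added criteria and other tests. Quantile normalization without WT 2 was added after the values were seen. The individual values of 1 member and 2 marker genes are not reported here.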

Additional observations from a re-analysis of the deposited data

Results flagged for a closer look

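Of 92 sets of values, each a named probe or a complex median within 1 genotype, 13 held an array that stood apart from the rest of its genotype by Dixon's criterion, where chance flags about 1 in 20. The value given is the gap to the nearest array divided by the range of the genotype. WT 2 was the array apart, on the low side, for Cox5a (0.912), Uqcrb (0.898), a probe of Ndufa1 (0.885), the brightest probe of Atp5b (0.878), Ndufs7 (0.870), Ndufs1 (0.862), Cox5b (0.862), Ndufs3 (0.853), the median of complex II (0.851) and Uqcrfs1 (0.833). WT 1 was apart on the high side for Cox6b2 (0.867). Among hNAG-1 arrays, hNAG-1 4 was apart on the low side for the brighter Uqcrc1 probe (0.750), and hNAG-1 1 on the high side for the bright Uqcrq probe (0.748).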

How the results depend on the processing

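The count of probes called higher at an unadjusted p under 0.05 was 1 under the reported processing, where 1.2% of all probes were. It was 10 with median scaling (6.19% of all probes), 5 with a floor of 20 (1.96%) and 4 with the methods' test (1.85%). It was 2 with dim probes left out (1.81% of all probes fitted) and 2 with eBayes with trend and robust estimation (1.62%). It was 0 without scaling (0.143% of all probes), with quantile normalization (3.67%) and with quantile normalization and WT 2 left out (2.46%). It was also 0 with the replicate block (0.833%) and with the study's added criteria of fold and intensity. Leaving out each mouse gave 0 to 3 called higher and 0 to 1 called lower. Of all probes, between 0.644% and 1.51% were then called higher and between 2.17% and 13.1% lower. The count called lower, 0 as reported (4.42% of all probes), was 1 with array weights (13.2%) and with the replicate block (12.3%). It was also 1 with quantile normalization (2.71%) and with quantile normalization and WT 2 left out (3.02%). In each case it was Cox7c. The adjusted count was 0 throughout. The median over the members moved by more than the spread between arrays with median scaling (0.29), as did complex II with median scaling (0.44) and without scaling (0.077) and complex V with median scaling (0.27), slide as a fixed block (0.26) and slide 3 alone (0.26). Leaving out each mouse gave medians from -0.05 to 0.17 for all members, -0.05 to 0.17 for complex I, 0.16 to 0.29 for complex II, -0.04 to 0.21 for complex III, -0.17 to 0.14 for complex IV and -0.05 to 0.12 for complex V. Median scaling and no scaling shift all probes alike, bringing the median of all probes to 0.20 and -0.16, and the members stayed 0.09 above it. The cause of the other changes was not tested. With the replicate block, which drops hNAG-1 5 and leaves 8 arrays, the median was 0.07. Deviations of arrays with the same number correlated at 0.33, -0.23, -0.16 and -0.35, and 1 of 4 WT arrays correlated best with its own number, so the number was read as a name only. With 9 arrays and 1 slide shared by both genotypes, the number of arrays limits what single probes could show.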
